A study of Mus musculus with 16 samples.

Results

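Total RNA of the trunk region and of the caudal region of wild-type mouse embryos of mid-gestation (embryonic stage E11.5) was sequenced, and the regions were compared gene by gene. The wild-type embryos have the genotype Ednrb+/+ (WT here), with an intact gene for the endothelin receptor B. The other libraries of the series come from the same regions of Ednrb-/- embryos of the same day, which lack it. The comparison rests on 8 of the 16 libraries, 4 of WT trunk and 4 of WT caudal tissue, each labelled as a biological replicate. The test used all 16 libraries, so the spread behind its p-values also comes from the Ednrb-/- libraries. Of the 56748 genes in the deposited table, 17205 reached 0.5 FPKM in at least 4 of the 16 libraries and were tested, and 13365 of these were protein-coding. FPKM is a level per kilobase of gene length, scaled to each library's total. The labels do not give the strain, the borders of the dissected pieces, the number of embryos in a library, or whether a trunk and a caudal library came from the same embryo.

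A mouse embryo of this age builds its body axis from head to tail. Trunk segments are laid down first and mature, while the tailbud at the posterior end still adds new mesoderm and spinal cord. Position along the axis is read from the Hox genes, transcription factors in 4 clusters (A to D) whose order on the chromosome follows the order of their expression domains, with paralog 1 anterior and paralog 13 posterior. Older segments also hold more differentiated muscle, connective tissue and neurons than younger ones. A comparison of trunk with tail end therefore shows regional identity and maturation together.

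The reads in listed genes ran from 35579221 to 43444905 over the 8 WT libraries, and 13771 to 14069 genes stood at 1 FPKM or more in each. Defining head genes were at or near 0 in the WT libraries, with Otx2, a forebrain and midbrain factor, at 0 in all 8 and Six3 and Rax at 0 in 7 of 8. Nkx2-1 of lung and Pdx1 of pancreas were also at 0 in all 8, and Alb of liver had a trunk mean of 0.234 ± 0.356 FPKM (SD, n = 4). Hemoglobin genes held 0.396% of the reads in listed genes in trunk and 0.429% in caudal libraries. This share did not differ past the threshold (two-sided exact permutation test, p = 0.314, adjusted p = 0.686). In WT caudal libraries the summed FPKM of 6 tailbud markers ran from 13.1 to 22.4 in replicates 1 to 3 and was 3.98 in replicate 4, so this library stood apart. The summed level of the hindlimb markers Tbx4 and Pitx1 was 14.3 FPKM in WT caudal replicate 4 and 2.21 in WT caudal replicate 3. Among trunk libraries, replicate 1 had the highest Tbx5 and Tbx4. Calls lost without one of these libraries are named beside the gene.

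Between the regions 3103 of 17205 genes differed, which is 18% of the genes tested (limma on log2(FPKM + 0.5), Benjamini-Hochberg adjusted p under 0.05). Of these, 1436 were higher in caudal tissue (8.35%) and 1667 lower (9.69%). Each count of list members below is to be read against these shares over all genes tested. Differences were mostly small: 84 called genes were at least 2-fold higher and 130 at least 2-fold lower, together 1.24% of the genes tested. The median difference over all genes tested was -0.0023 on the log2 scale. Among protein-coding genes of at least 1 FPKM in either region, the 15 largest rises include 11 Hox genes, and the 15 largest falls include Hoxc8, Hoxc6 and the matrix genes Kera, Ogn, Tnc, Dcn and Lum. With only the 8 WT libraries in the fit, 2497 genes were called. Without WT caudal replicates 3 and 4, 2048 genes were called, 906 of them higher in caudal tissue, and without WT caudal replicate 2 alone 947 were called higher. In bulk tissue, fewer cells of a type and less RNA per cell cannot be told apart.

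Hox genes of paralogs 10 to 13 were higher in caudal tissue in 12 of 12 cases, with a median log2 difference of 4.47 against -0.0023 over all genes tested. The 2 of them with no read in any trunk library have no exact fold, and with these at their lower bound the median was 4.71. Of the 12 genes of paralogs 1 to 4, 5 were higher and 1 was lower, with a median of 0.09. Of the 15 genes of paralogs 5 to 9, 3 were higher and 7 lower, with a median of -0.15. The summed level of paralogs 10 to 13 was 13.8 to 52.2 FPKM in trunk and 285 to 330.2 FPKM in caudal libraries. Trunk replicate 1 gave the highest and trunk replicate 4 the lowest of the trunk sums, and the groups did not overlap. Over the 17205 genes, 21.3% had groups that did not overlap.

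Hoxc11 (ENSMUSG00000001656, mm39 chromosome 15 from 102862862 to 102866143, plus strand, protein-coding) had the largest rise on the log2(FPKM + 0.5) scale among protein-coding genes of at least 1 FPKM in either region. It stood at 0.451, 0.0263, 0.105 and 0 FPKM in the trunk libraries and at 26.8, 42.2, 36.4 and 30.4 FPKM in the caudal ones. It was therefore near 0 in trunk and well expressed in each caudal library, and its log2 difference was 5.77 ± 0.17 (SE, limma adjusted p = 3e-12). Its neighbour Hoxc12 had 0 reads in the 4 trunk libraries and 3687 in the 4 caudal ones, where it stood at 20.9, 28.3, 30.4 and 17.9 FPKM. With 3 reads over the trunk group as the floor, it was at least 1320-fold higher in caudal tissue. Hoxb13, the posterior end of the B cluster, likewise had 0 trunk and 1497 caudal reads and was at least 535-fold higher. Hoxc13 rose from a mean of 0.0756 ± 0.0285 to 20.1 ± 6.36 FPKM (SD, n = 4) and Hoxd13, a factor of digits and genital tubercle, from 0.129 ± 0.0753 to 17.2 ± 2.80 FPKM. Hoxa13, which marks cloaca and distal limb, went from 0.0164 ± 0.0208 to 6.05 ± 1.42 FPKM. The log2 differences of these 3 genes were 5.11, 4.81 and 3.64, and those of Hoxd11, Hoxd12 and Hoxa11 were 4.81, 4.62 and 4.32.

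Among paralogs 10 to 13, the genes of paralog 10 had the highest trunk levels. Hoxc10 stood at 26.5, 15.4, 20.4 and 7.01 FPKM in trunk and 63.4, 53.3, 66.5 and 67.4 FPKM in caudal libraries, a log2 difference of 1.96 ± 0.35 (limma adjusted p = 0.0014). Hoxa10 stood at 16.9, 11.52, 10.8 and 5.83 FPKM in trunk and 53.0, 49.3, 49.8 and 53.8 FPKM in caudal libraries (2.23 ± 0.23, limma adjusted p = 9.9e-06). Hoxd10, a lumbar and hindlimb factor, stood at 6.13, 1.67, 3.03 and 0.298 FPKM in trunk and 44.5, 40.2, 45.8 and 38.2 FPKM in caudal libraries (4.08 ± 0.44, limma adjusted p = 1.9e-05). All 3 were highest in trunk replicate 1 and lowest in trunk replicate 4, and relative to their level the trunk libraries differed more among themselves than the caudal ones. Trunk replicate 1 also had the highest trunk level of the limb genes Tbx4 and Tbx5. The part of tissue makeup in these values was not tested.

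**Figure D1:**
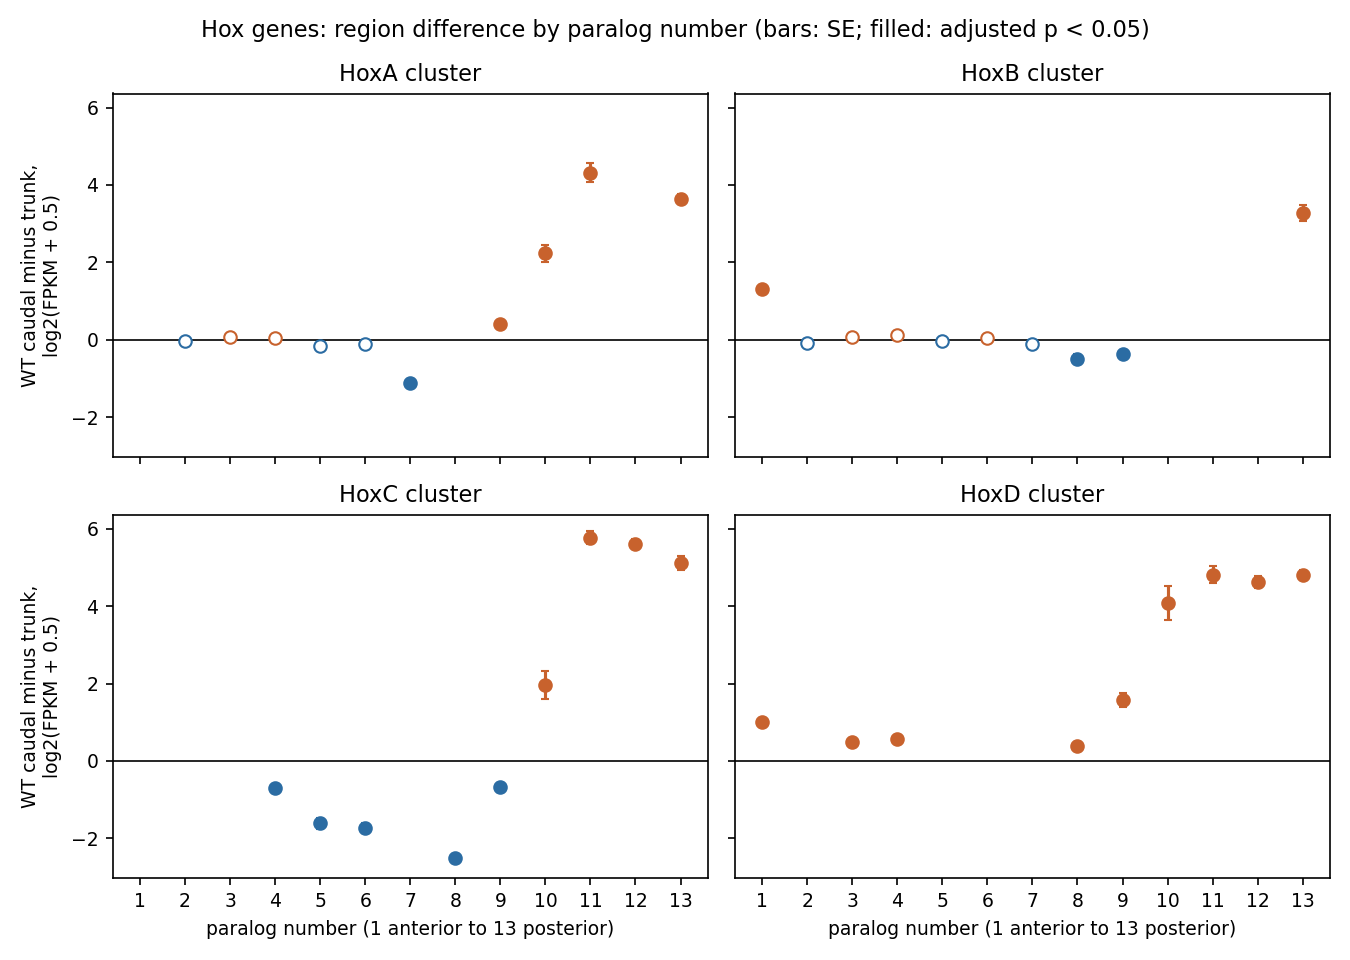
Region difference of the Hox genes described here, as WT caudal minus trunk on the log2(FPKM + 0.5) scale, against paralog number in 4 cluster panels. Points above 0 (orange) are higher and points below 0 (blue) lower in caudal tissue, bars are SE, and filled points have an adjusted p under 0.05. The 12 genes of paralogs 10 to 13 lie between 1.96 and 5.77, and HoxC paralogs 4 to 9 lie below 0.

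The clusters switched sign at different points. In the C cluster (chromosome 15 from 102829538 to 102945278, mm39) Hoxc4, Hoxc5, Hoxc6, Hoxc8 and Hoxc9 were lower and Hoxc10 to Hoxc13 higher in caudal tissue. The switch fell between Hoxc9 and Hoxc10, whose annotated spans lie 4545 bases apart. In the A cluster (chromosome 6) it fell between Hoxa7, lower in caudal tissue, and Hoxa9, higher, 1245 bases apart. In the B cluster (chromosome 11) only Hoxb8 and Hoxb9 were lower and, of the posterior end, Hoxb13 was higher, with 74009 bases between Hoxb9 and Hoxb13. In the D cluster (chromosome 2) 9 of 9 genes were higher and none was lower, so no switch was seen. The summed level of the D cluster was 34.0 FPKM in trunk and 152 FPKM in caudal tissue, while that of the C cluster was 224 and 216 FPKM.

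Of the 8 Hox genes that fell, 5 lie in the C cluster. Hoxc8 (ENSMUSG00000001657, chromosome 15 from 102899039 to 102902543, plus strand, mm39), a thoracic identity factor, stood at 51.4, 59.6, 66.2 and 66.9 FPKM in trunk and 10.9, 8.73, 10.1 and 11.9 FPKM in caudal libraries. No library of one region reached the other, and its log2 difference was -2.50 ± 0.10 (limma adjusted p = 7.3e-11), the largest fall on this scale among protein-coding genes of at least 1 FPKM in either region. Hoxc6 had a trunk mean of 59.4 ± 5.87 and a caudal mean of 17.8 ± 3.59 FPKM (SD, n = 4), a log2 difference of -1.73. Hoxc5 stood at 18.6, 17.4, 22.8 and 21.2 FPKM in trunk and 6.98, 4.58, 6.33 and 7.19 FPKM in caudal libraries (-1.61). The annotated span of Hoxc5 overlaps those of Hoxc6, Hoxc8, Hoxc9 and Hoxc10, so reads of these genes could not be split with certainty. Hoxc4 fell by 0.71 and Hoxc9 by 0.68. Hoxa7 had means of 25.4 ± 3.08 in trunk and 11.3 ± 1.07 FPKM in caudal tissue and was lower there by 1.12 ± 0.08 (limma adjusted p = 2.8e-07), while its neighbours Hoxa5 (-0.15, adjusted p = 0.14) and Hoxa6 (-0.10, adjusted p = 0.57) did not pass. Hoxb8 fell by 0.49 (adjusted p = 0.013, and 0.061 with only the 8 WT libraries in the fit). Hoxb9 fell by 0.37 (adjusted p = 0.033), with groups that overlap, at 74.3, 67.2, 99.4 and 91.4 FPKM in trunk and 69.2, 51.9, 71.3 and 62.3 FPKM in caudal libraries. Its call was lost without trunk replicate 3 (adjusted p = 0.1) or 4 (0.094) and without caudal replicate 2 (0.11) or 4 (0.059). It was also lost with only the 8 WT libraries in the fit (0.1).

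Near the anterior end of the clusters, 5 of the 12 genes of paralogs 1 to 4 were higher in caudal tissue. Hoxb1, best known from the hindbrain and also transcribed in the early posterior embryo, stood at 1.20, 1.15, 1.43 and 1.10 FPKM in trunk and 3.38, 4.08, 4.80 and 2.94 FPKM in caudal libraries (1.31 ± 0.11, limma adjusted p = 2.2e-06). Hoxd1 rose by 1.00 on the log2 scale. Hoxd3 and Hoxd4, whose annotated spans overlap, rose by 0.50 and 0.57, and Hoxd8, Hoxd9 and Hoxa9 by 0.39, 1.57 and 0.42. Another 11 Hox genes did not pass. They were Hoxa2 to Hoxa6 and Hoxb2 to Hoxb7, with log2 differences between -0.15 and 0.11.

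**Figure D2:**
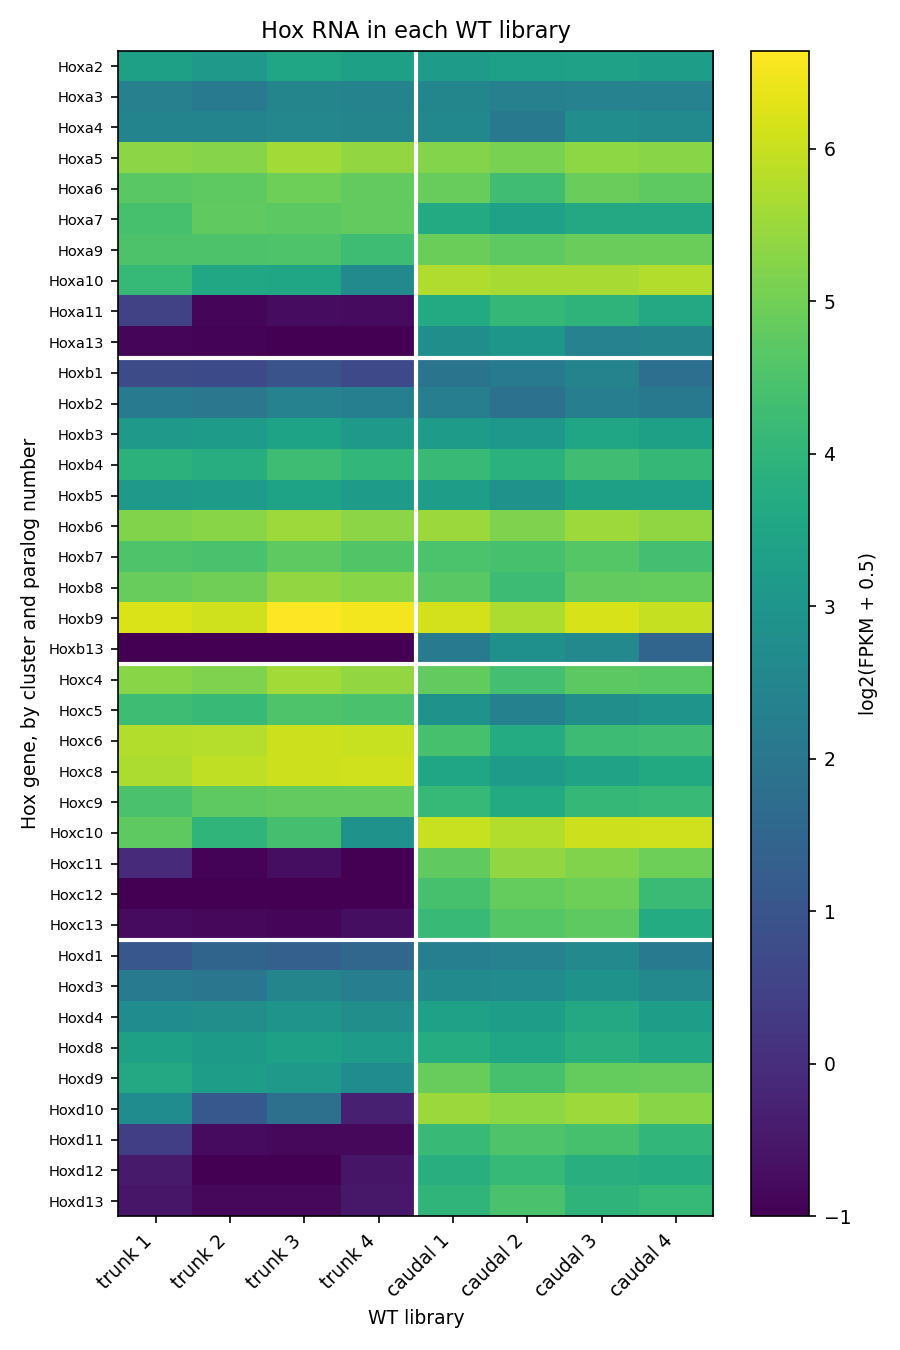
Level of the Hox genes described here (rows, by cluster and paralog number) in each of the 8 WT libraries (columns), as log2(FPKM + 0.5) on a color scale. Paralogs 11 to 13 are dark in the 4 trunk libraries, and Hoxd10 ranges from 0.298 to 6.13 FPKM among them.

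Of 17 noncoding genes in or near the clusters tested, 8 were higher in caudal tissue, none was lower and 9 did not pass, against 8.35% and 9.69% over all genes. Not all of the higher ones lie between the first and last Hox gene of a cluster. Hotair, a long noncoding RNA of the C cluster, had 1 read in the 4 trunk libraries and 2282 in the 4 caudal ones, a ratio of 2450 with a 95% counting interval from 439 to 96800. Hottip, at the posterior end of the A cluster, had 0 and 307 reads and was at least 110-fold higher. Hoxa11os, transcribed from the other strand at Hoxa11, rose by 2.98, but no strand setting is given in the sources used here, and its reads cannot be told from those of Hoxa11. Hoxb5os rose by 0.80 with the same limit.

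The miR-196 hairpins lie inside the clusters, and miR-196 is a known repressor of central Hox genes. Its mature sequences are shown because its host region at Mir196a-1 rose and its seed can be looked up in the Hox genes described above. Sequences are from RefSeq (GRCm38.p6), 5′ to 3′, with the seed in capitals (bases 2 to 8).
miR-196a-5p: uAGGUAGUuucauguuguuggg
miR-196b-5p: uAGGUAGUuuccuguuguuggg
The hairpin gene Mir196a-1, between Hoxb9 and Hoxb13, held 48, 84, 63 and 65 reads in the trunk libraries and 156, 149, 154 and 128 in the caudal ones. That is 16.2 ± 4.14 and 39.2 ± 3.48 FPKM, with no overlap, and a log2 difference of 1.27 ± 0.16 (limma adjusted p = 5.2e-05). Reads at a hairpin in these libraries come from longer transcripts that cross it and do not measure the mature miRNA. Mir196a-2 had 0 to 13 reads in a WT library and Mir196b had 0 in all 8.

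The DNA letters that pair with the miR-196 seed, ACTACCT, were searched on the sense strand of 3′ UTRs built from the GENCODE M21 annotation (GRCm38), taking the transcript with the longest UTR of each gene. They occurred in 6.11% of 20998 UTRs and in 9 of 39 Hox genes. Each site below is 30 bases long, with the match in capitals.
Hoxc8 site 1: acactcacaactctaACTACCTgtcagata
Hoxc8 site 2: ataaatctttaacatACTACCTaaagggaa
Hoxa7 site 1: aggcacagccaaaatACTACCTagcacagg
Hoxa7 site 2: gagaggcactcccaaACTACCTatgggccc
Hoxa7 site 3: caaaccatgatcaatACTACCTactactag
Hoxa7 site 4: tactactagccctaaACTACCTattgtgtg
Hoxb7 site: actgtaaaaaaatatACTACCTatgggaaa
Hoxb6 site: ctggaaggagcacatACTACCTagaaggaa
Hoxa5 site: gatatttttattcaaACTACCTatattcct
Hoxc8 and Hoxa7 were lower in caudal tissue, while Hoxb7 (-0.11), Hoxb6 (0.06) and Hoxa5 did not pass the test. Of the 8 Hox genes lower in caudal tissue 2 hold a match, of the 20 higher 3 do, Hoxb1 and Hoxa9 among them, and of the 11 not called 4 do. Hoxc4, Hoxc5, Hoxc6 and Hoxc9 fell and hold none. A match is a description of the letters, and no effect of the miRNA was tested.

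Genes of the tailbud, the pool of progenitors that extends the axis, were higher in caudal tissue. Of 17 tested, 9 were higher and none was lower, with a median log2 difference of 0.66. T (ENSMUSG00000062327, chromosome 17 from 8653255 to 8661328, plus strand, mm39), the Brachyury factor of early mesoderm and notochord, stood at 1.31, 1.16, 1.56 and 1.28 FPKM in trunk and 7.01, 8.49, 10.6 and 2.75 FPKM in caudal libraries. The groups did not overlap, caudal replicate 4 was the lowest of its group, and the log2 difference was 1.95 ± 0.31 (limma adjusted p = 6e-04), or 2.32 without caudal replicate 4. Sall4, a zinc finger factor of pluripotent and progenitor cells, stood at 0.503, 0.716, 0.852 and 0.648 FPKM in trunk and 5.89, 7.84, 7.60 and 4.39 FPKM in caudal libraries, a log2 difference of 2.53 ± 0.17 (limma adjusted p = 1.8e-07). On this log2(FPKM + 0.5) scale, which understates the change of genes near 0, only Hox genes rose more among protein-coding genes of at least 1 FPKM in either region. Cyp26a1, which clears retinoic acid from the tailbud, rose by 1.04, Dkk1, a Wnt antagonist, by 1.41, Evx1 by 0.66 and Gdf11, a signal for the trunk to tail transition, by 0.37.

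Caudal replicate 4 had low levels of several tailbud genes, while Sall4, T, Cyp26a1 and Evx1 stood above the trunk range there too. Cdx2, a caudal homeobox factor, had 0 reads in the 4 trunk libraries and stood at 0.456, 0.629, 1.01 and 0 FPKM in the caudal ones, so caudal replicate 4 was at 0 like the trunk. Cdx4 stood at 0.649, 0.752, 1.20 and 0.0277 FPKM and Fgf8, the growth factor of the tailbud, at 0.864, 1.26, 1.01 and 0.161 FPKM in the caudal libraries. Their trunk means were 0.0192 ± 0.0129 and 0.171 ± 0.0658 FPKM. All 3 were called higher, with log2 differences of 0.93 (limma adjusted p = 0.02), 1.04 (0.018) and 0.90 (0.014). Without caudal replicate 4 the differences were 1.24, 1.38 and 1.20. Without caudal replicate 2 the calls were lost (adjusted p = 0.064, 0.055 and 0.053), and without caudal replicate 3 those of Cdx2 (0.067) and Cdx4 (0.06). With only the 8 WT libraries in the fit all 3 calls were lost too (limma adjusted p = 0.071, 0.057 and 0.064). With voom on whole reads that of Cdx2 was lost (0.075). Fgf17 (0.86, adjusted p = 0.053), Sp5 (0.53), Wnt3a (0.48) and Nkx1-2 (0.16) did not pass. Fgf17 and Sp5 passed without caudal replicate 4 (limma adjusted p = 0.019 and 0.016).

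The presomitic mesoderm buds off the somites. Of 18 of its genes tested, 9 were higher in caudal tissue and none was lower, with a median log2 difference of 0.50. Msgn1 (ENSMUSG00000047002, chromosome 12 from 11258361 to 11258973, minus strand, mm39), a factor restricted to this tissue, had 0 reads in the trunk libraries and 216 in the caudal ones, and was at least 77.3-fold higher. In the caudal libraries it stood at 1.77, 3.75, 3.92 and 0.177 FPKM. Tbx6, which commits cells to the paraxial mesoderm, stood at 0.447, 0.398, 0.455 and 0.513 FPKM in trunk and 2.72, 3.14, 5.15 and 0.632 FPKM in caudal libraries (1.63 ± 0.33, limma adjusted p = 0.0031). Hes7, the oscillating repressor of the segmentation clock, stood at 0.945, 1.31, 1.51 and 0.0751 FPKM in caudal libraries against a trunk mean of 0.0650 ± 0.0536 FPKM (1.23, adjusted p = 0.01). In all 3 genes caudal replicate 4 lay at or near the trunk level, and without it the log2 differences were 2.80, 2.09 and 1.63.

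Genes of the somites that follow also rose. Meox1, a factor of newly formed somites, stood at 23.9, 22.6, 23.1 and 25.1 FPKM in trunk and 50.5, 57.3, 60.8 and 37.4 FPKM in caudal libraries (1.08 ± 0.12, limma adjusted p = 2.9e-05). Dll3, a Notch pathway member of segmentation, rose by 0.62, Pcdh8, an adhesion molecule of forming somites, by 0.80, Foxc2 by 0.75 and Rspo3, a Wnt enhancer, by 0.28. The ninth was Tbx18, a factor of anterior somite compartments, at 0.48 (adjusted p = 0.029), with groups that overlap. Its call was lost without trunk replicate 2 (adjusted p = 0.074), 3 (0.089) or 4 (0.069) and without caudal replicate 2 (0.076) or 4 (0.08), and with only the 8 WT libraries in the fit (0.095). Dll1 (0.22), Lfng (0.13), Nrarp (0.10), Uncx (0.18), Mesp2 (0.51) and Ripply2 (0.94) did not pass. Dll1 and Ripply2 passed without caudal replicate 4.

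**Figure D3:**
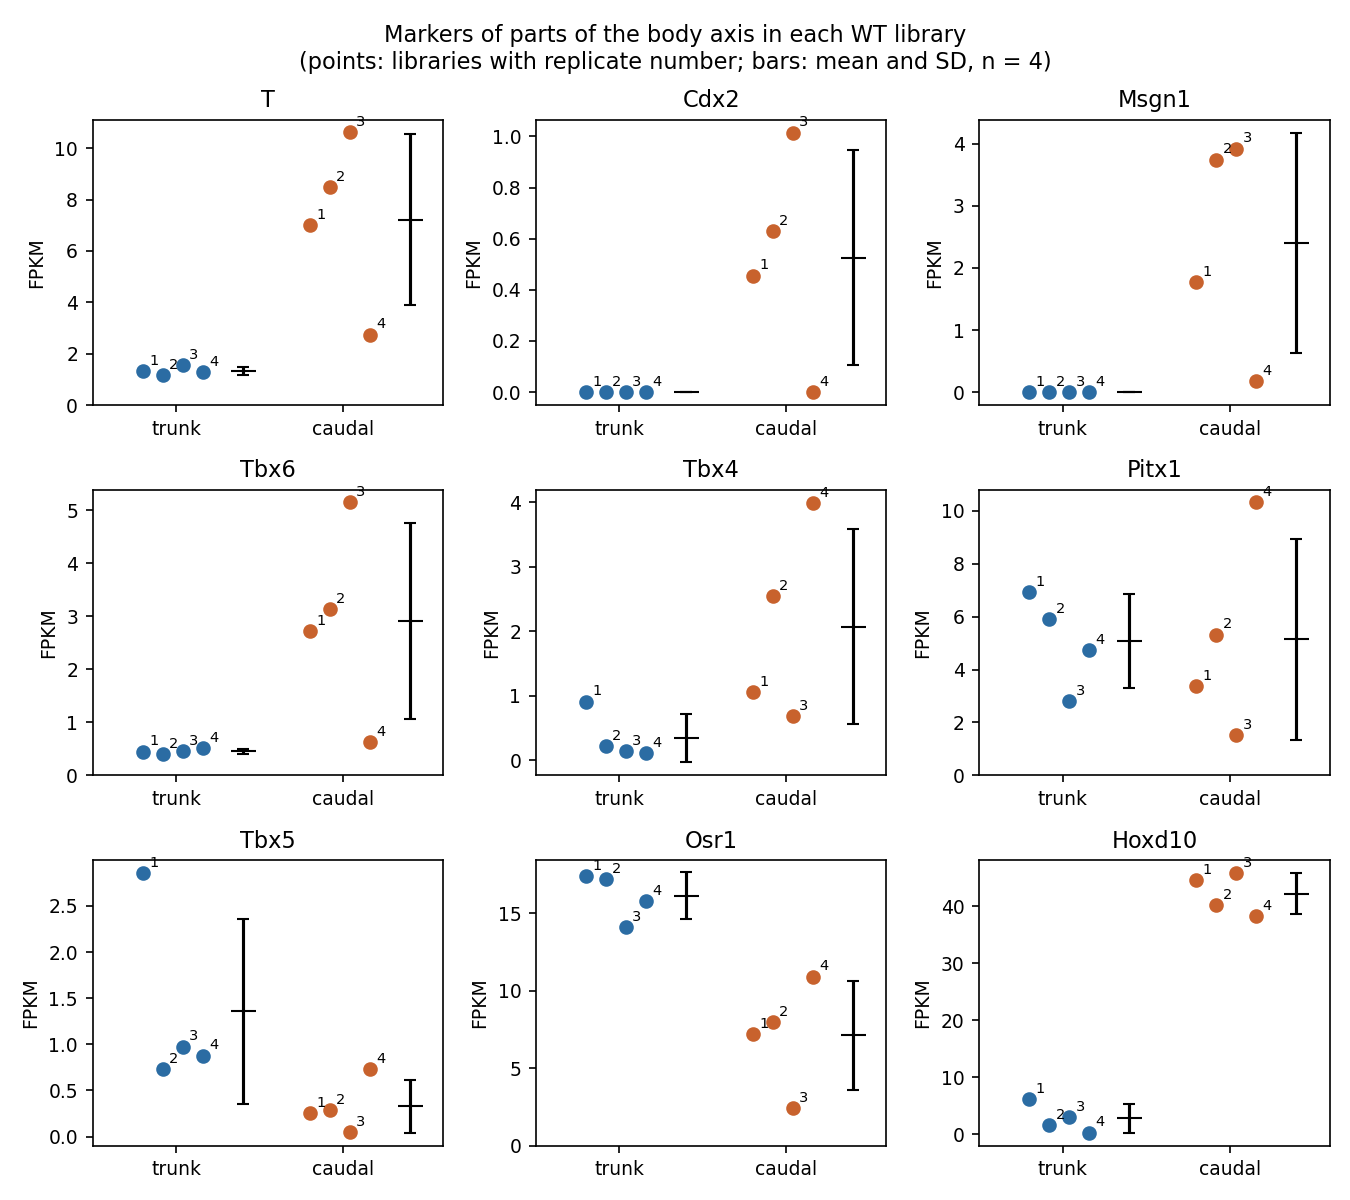
FPKM of 9 markers in each WT library, with replicate numbers at the points and the mean and SD of 4 libraries at the right of each group. Caudal replicate 4 is at or near the trunk level for Cdx2, Msgn1 and Tbx6 and highest for Tbx4 and Pitx1, and trunk replicate 1 is the highest trunk library for Hoxd10, Tbx4 and Tbx5.

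Of 23 limb genes tested, 8 were higher in caudal tissue and 4 lower. That is 52.2% called, against 18% of all genes tested. Sall1, Shh and Isl1 of this list are also members of other lists. Tbx4, the hindlimb T-box factor, stood at 0.910, 0.219, 0.140 and 0.113 FPKM in trunk and 1.06, 2.55, 0.683 and 3.99 FPKM in caudal libraries, with groups that overlap, and was higher in caudal tissue by 1.50 ± 0.34 (limma adjusted p = 0.0074). Tbx5, its forelimb partner, stood at 2.85, 0.728, 0.975 and 0.878 FPKM in trunk and 0.255, 0.287, 0.0468 and 0.732 FPKM in caudal libraries and was lower by 1.10 (adjusted p = 0.02), a call lost without caudal replicate 3 (adjusted p = 0.066) or with only the 8 WT libraries in the fit (0.064). Pitx1, which acts above Tbx4 in the hindlimb, stood at 6.92, 5.91, 2.79 and 4.73 FPKM in trunk and 3.37, 5.32, 1.52 and 10.3 FPKM in caudal libraries and did not pass (-0.18, adjusted p = 0.79). Of the other members, Sall1, a factor of limb and kidney, rose by 1.04 and Msx1 by 0.66, while Alx4, a factor of anterior limb and body wall, fell by 0.56.

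Genes of the cloaca, genital tubercle and hindgut were higher in caudal tissue in 11 of 14 cases and lower in none, with a median of 0.76. Besides Hoxa13 and Hoxd13, Shh, the signal of hindgut, notochord and floor plate, went from 3.22 ± 0.576 to 6.07 ± 0.360 FPKM (SD, n = 4) and rose by 0.83 ± 0.11 (limma adjusted p = 0.00011). Foxf2 rose by 0.77 and Isl1 by 0.43. Six2, of nephron progenitors and the genital tubercle, stood at 2.93, 1.76, 3.35 and 3.83 FPKM in trunk and 8.99, 12.4, 4.55 and 13.0 FPKM in caudal libraries (1.50, adjusted p = 0.0021). Eya1, its partner, rose by 1.00. Lbx2, a homeobox factor, rose from 0.0747 ± 0.0272 to 2.34 ± 0.520 FPKM (2.29 ± 0.19) and Calb2, which encodes calretinin, from 0.673 ± 0.199 to 4.47 ± 2.29 FPKM (1.97 ± 0.41), and both were among the 15 largest rises.

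Of 15 kidney and gonad genes tested, 3 were higher in caudal tissue (Sall1, Ret and Six2) and 7 lower, and 5 did not pass. That is 66.7% called, against 18% of all genes tested. Osr1, a factor of intermediate mesoderm, stood at 17.4, 17.2, 14.1 and 15.8 FPKM in trunk and 7.21, 7.97, 2.41 and 10.9 FPKM in caudal libraries and fell by 1.28 ± 0.29 (limma adjusted p = 0.0071). Caudal replicate 3 was lowest and caudal replicate 4 highest of the caudal group, and the groups did not overlap. Gata4, of gonad and heart, stood at 2.05, 3.14, 0.556 and 0.907 FPKM in trunk and 0.445, 0, 0.0280 and 0.0209 FPKM in caudal libraries and fell by 1.68. Upk3b, a mesothelial gene, fell by 1.32, Emx2 by 1.09 and Kctd14, a potassium channel domain gene, by 2.49. Wt1, of kidney and mesothelium, fell by 1.27 (adjusted p = 0.024). Its call was lost without trunk replicate 1 (adjusted p = 0.068) or 2 (0.072), without caudal replicate 2 (0.052) and without caudal replicates 3 and 4 together (0.093). With only the 8 WT libraries in the fit it was lost too (0.1). Without caudal replicate 3 alone Wt1 fell by 0.81 (0.04). Trunk replicates 1 and 2 had the higher trunk levels of Gata4, Kctd14, Upk3b and Wt1.

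Heterochronic genes time development. Of 11 tested, 7 were higher in caudal tissue and 3 lower. Lin28a (ENSMUSG00000050966, chromosome 4 from 133730641 to 133746152, minus strand, mm39), which blocks maturation of the let-7 miRNAs in early embryos, stood at 1.88, 1.05, 1.71 and 1.43 FPKM in trunk and 3.51, 3.49, 4.57 and 2.83 FPKM in caudal libraries. Each caudal library was above each trunk library, and the log2 difference was 1.03 ± 0.24 (limma adjusted p = 0.0087). Lin28b rose by 0.69, the chromatin proteins Hmga1 and Hmga2 by 0.57 and 0.40, and the mRNA-binding proteins Igf2bp1, Igf2bp2 and Igf2bp3 by 0.47, 0.31 and 0.23. Nfix, a late factor of muscle and neural maturation, stood at 1.29, 2.35, 1.68 and 2.12 FPKM in trunk and 0.694, 0.658, 0.420 and 1.23 FPKM in caudal libraries and fell by 0.93 (adjusted p = 0.0028). Nfib fell by 0.87 and Nfia by 0.57, and the call of Nfia was lost without trunk replicate 2 (adjusted p = 0.052) and without caudal replicate 2 (0.054) or 3 (0.058). Zbtb20 did not pass (-0.13, adjusted p = 0.42).

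The let-7 seed is shown because Lin28a and other early genes are its known targets. RefSeq gives let-7a as follows, with the seed in capitals.
let-7a-5p: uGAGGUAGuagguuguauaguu
The letters that pair with it, CTACCTC, occurred in 9.03% of the 20998 longest 3′ UTRs. Both motifs share the letters CTACCT. Examples of the 30-base sites follow, with the match in capitals.
Lin28a site 1: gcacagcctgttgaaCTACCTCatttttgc
Lin28a site 2: gagatcgccacaaacCTACCTCactgtgtt
Igdcc3 site 1: tgtgactctcagcacCTACCTCagccggaa
Igdcc3 site 2: agcccgaaagcactcCTACCTCaagcccct
Trim71 site 1: aacattgcctaagtcCTACCTCagcttaaa
Trim71 site 2: agtgataatttctatCTACCTCaactcttt
Igdcc3, Trim71 and Fignl2 were added after their values were seen. Igdcc3, an immunoglobulin superfamily receptor, stood at 8.35, 6.92, 9.13 and 9.00 FPKM in trunk and 27.1, 30.8, 37.6 and 23.6 FPKM in caudal libraries (1.76 ± 0.19, limma adjusted p = 1.9e-05). Trim71, the ortholog of the worm heterochronic gene lin-41, stood at 1.37, 1.18, 1.22 and 1.29 FPKM in trunk and 3.15, 3.98, 4.06 and 3.04 FPKM in caudal libraries (1.19, adjusted p = 2.7e-05). Fignl2 rose by 1.25. Of the 15 genes searched, which are the 11 of the list with Sall4, Trim71, Igdcc3 and Fignl2 added, 11 were higher in caudal tissue and 11 of these hold a let-7 match. Of the 3 lower genes 1 does (Nfia). Since known let-7 targets were among the reasons for this choice of genes, the count is a description. At the let-7 hairpin genes themselves no WT library held more than 3 reads, so let-7 was not measurable here.

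Skeletal muscle genes were lower in caudal tissue in 15 of 19 cases and higher in 3, with a median log2 difference of -0.86. Myod1 (ENSMUSG00000009471, chromosome 7 from 46025898 to 46028523, plus strand, mm39), the factor that commits myoblasts, stood at 9.84, 16.6, 11.53 and 14.7 FPKM in trunk and 5.09, 3.10, 3.55 and 5.08 FPKM in caudal libraries. The groups did not overlap, and the gene fell by 1.54 ± 0.19 (limma adjusted p = 7.4e-05). Myog, the factor of terminal differentiation, averaged 64.3 ± 6.48 FPKM in trunk and 29.1 ± 1.64 FPKM in caudal tissue (SD, n = 4), lower there by 1.12. Mymk and Mymx, which fuse myoblasts into fibers, fell by 1.34 and 1.54. The fetal myosin gene Myh8 stood at 3.46, 3.91, 3.28 and 3.95 FPKM in trunk and 0.532, 0.469, 0.225 and 0.584 FPKM in caudal libraries and fell by 2.14 (adjusted p = 2.7e-08), one of the 3 largest falls. Chrna1, a receptor subunit of the neuromuscular junction, fell by 0.96, and the sarcomere genes Actc1, Tnnc1 and Acta1 by 0.86, 1.06 and 0.75.

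3 regulators of the list went the other way. Myf5, the first myogenic factor to appear in the somite, stood at 3.27, 3.35, 2.86 and 3.19 FPKM in trunk and 4.77, 7.20, 7.60 and 4.84 FPKM in caudal libraries (0.82 ± 0.12, limma adjusted p = 0.00031). Myf6, also transcribed early in the myotome and encoded next to Myf5, stood at 1.11, 1.09, 0.839 and 0.929 FPKM in trunk and 2.38, 3.21, 3.42 and 1.76 FPKM in caudal libraries (1.07, adjusted p = 0.00019). Pax3, of dermomyotome and dorsal neural tube, was the third gene called higher (0.44, adjusted p = 0.022). This call was lost without trunk replicate 1 (adjusted p = 0.066) or 2 (0.058) and without caudal replicate 2 (0.056) or 3 (0.067). With only the 8 WT libraries in the fit the call of Pax3 was also lost (0.061). Pax7, its relative in muscle progenitors, was lower instead (-0.35, adjusted p = 0.047), with groups that overlap. Its call was lost with only the 8 WT libraries in the fit (0.085) and on leaving out any 1 of 6 of those libraries (0.089 to 0.13).

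Extracellular matrix genes formed the most uniform fall among the 36 lists: 18 of 20 were lower in caudal tissue and none was higher, with a median of -1.08. Dcn (ENSMUSG00000019929, chromosome 10 from 97315471 to 97354005, plus strand, mm39), which encodes the proteoglycan decorin, stood at 7.59, 8.92, 6.68 and 7.03 FPKM in trunk and 1.99, 1.62, 1.89 and 1.97 FPKM in caudal libraries. It fell by 1.76 ± 0.16 (limma adjusted p = 3.9e-06), with no overlap. The related proteoglycans Lum, Ogn and Kera fell by 1.69, 1.99 and 2.07. Tnc, the tendon and mesenchyme protein tenascin C, averaged 13.5 ± 1.83 FPKM in trunk and 3.57 ± 0.654 FPKM in caudal tissue (SD, n = 4), lower there by 1.79. Thbs2, Col14a1 and Col6a1 fell by 1.19, 1.08 and 1.12, and Bgn by 0.71. Postn did so by 1.20. Igf1 and Dlk1, growth regulators picked after their values were seen, fell by 1.31 and 1.29.

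Sclerotome genes, of the somite part that gives the vertebrae, were higher in caudal tissue in 6 of 15 cases and lower in 2. That is 53.3% called, against 18% of all genes tested. Pax1 went from 13.3 ± 1.03 to 22.1 ± 2.61 FPKM (SD, n = 4) and rose by 0.71 ± 0.08 (limma adjusted p = 1.9e-05), and its partner Pax9 rose by 0.53. Foxc1 rose by 0.57, Nkx3-2 by 0.44 and Hapln1, a matrix link protein, by 0.92. The 2 lower members were the matrix genes Acan (-0.56), which encodes the cartilage proteoglycan aggrecan, and Matn4 (-0.88, adjusted p = 0.063 with only the 8 WT libraries in the fit). Col2a1, the main cartilage collagen, did not pass the test in either direction.

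**Figure D4:**
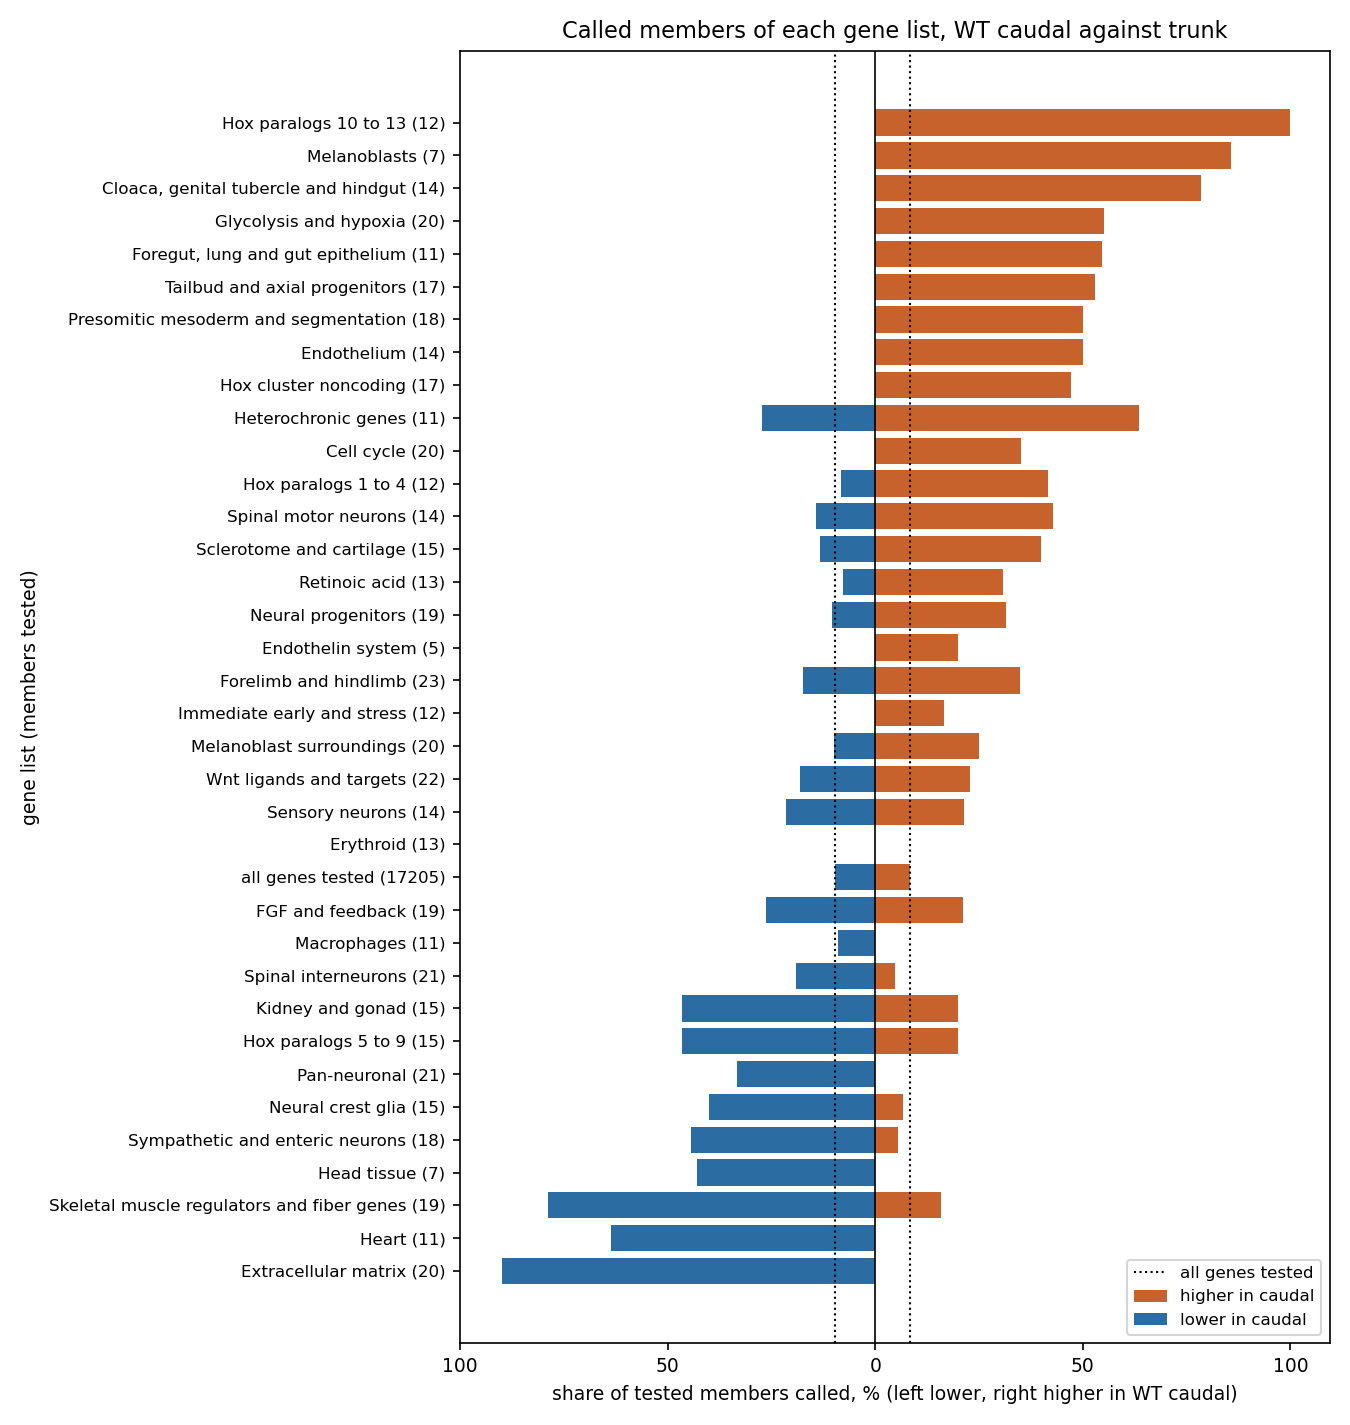
Share of the tested members of each gene list that was called higher (orange, to the right) or lower (blue, to the left) in WT caudal than in trunk tissue, in percent, for lists with at least 5 members tested. Dotted lines mark 8.35% and 9.69%, the shares over all genes tested. Hox paralogs 10 to 13 (12 of 12 higher) and extracellular matrix genes (18 of 20 lower) stand at the ends.

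Of 19 neural progenitor genes 6 were higher in caudal tissue and 2 lower, and 11 did not pass. Atoh1, of the most dorsal spinal progenitors, stood at 0.957, 0.627, 1.20 and 1.04 FPKM in trunk and 2.17, 2.71, 3.39 and 1.78 FPKM in caudal libraries (1.04 ± 0.18, limma adjusted p = 0.0012). Dbx1, of intermediate progenitors, rose by 0.82 and Pax6 by 0.52. Among the 2 lower ones was Fabp7, which radial glia share with crest-derived glia and which fell by 0.88. Of 21 general neuron genes 7 were lower and none was higher, with a median of -0.34. Chgb, a vesicle protein, fell by 0.87, Syt1, a synaptic calcium sensor, by 0.72 and Gad2, which makes GABA, by 0.81. Without caudal replicate 2, 4 of them were called, and with array weights 11. The early neuron genes Tubb3 (-0.23) and Elavl4 (0.01) did not pass.

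Motor neuron genes were higher in 6 of 14 cases and lower in 2, and 6 did not pass, with a median of 0.25. That is 57.1% called, against 18% of all genes tested. Among the members with the smallest adjusted p, Isl1, shared with cloaca and hindlimb, Foxp1 and Nr2f2 rose by 0.43, 0.31 and 0.38. The genes named do not stand for the whole list. The intermediate filament gene Prph stood at 8.54, 11.6, 12.8 and 12.3 FPKM in trunk and 4.18, 2.12, 2.46 and 4.81 FPKM in caudal libraries and fell by 1.65 ± 0.24 (limma adjusted p = 0.00023), and the choline transporter gene Slc5a7 fell by 0.53. Of 18 sympathetic and enteric neuron genes 8 were lower and 1 was higher. Npy, a neuropeptide, and Chga, a vesicle protein, fell by 1.18 and 0.68, and the one higher was Ret, the GDNF receptor that the ureteric bud also uses (0.56). In the fits without trunk replicate 1 or 2, or without caudal replicate 2 or 3, 4 to 5 members were lower. Glial genes of the neural crest were lower in 6 of 15 cases, among them Cdh19, which fell by 0.45.

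Melanoblast genes, of the crest-derived pigment cell precursors, were higher in caudal tissue in 6 of the 7 tested and lower in none. The other 8 of 15 listed lay under the filter. Pmel (ENSMUSG00000025359, chromosome 10 from 128540064 to 128556107, plus strand, mm39), a melanosome matrix protein, stood at 0.522, 0.870, 0.693 and 0.512 FPKM in trunk and 3.48, 3.84, 3.48 and 3.63 FPKM in caudal libraries. The caudal libraries lay close together and far above the trunk, with a log2 difference of 1.85 ± 0.13 (limma adjusted p = 2.6e-07). Dct, a pigment enzyme, went from 0.476 ± 0.206 to 1.63 ± 0.202 FPKM (SD, n = 4) and rose by 1.15, and Gpnmb rose by 1.00. Mitf, the lineage's main factor, rose by 0.53 and Kit, its receptor, by 0.35. Sox10, shared with glia and other crest cells, rose by 0.38 (adjusted p = 0.0058, and 0.087 without caudal replicates 3 and 4). Tyr and Trpm1, under the filter, reached the smallest p that 4 against 4 allows (two-sided exact permutation test, p = 0.0286), with an adjusted p of 0.175 over the 55 genes tested in this way.

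The call of Ednrb, the receptor gene that names the study's mutant line, depended on the fit. It stood at 35.8, 37.0, 41.8 and 40.2 FPKM in trunk and 32.2, 26.2, 30.3 and 33.5 FPKM in caudal libraries, with no overlap (-0.34 ± 0.16). The limma adjusted p was 0.16 with all 16 libraries in the fit, 0.022 with only the 8 WT libraries and 0.011 with voom on whole reads. Its ligand gene Edn3 was at 4.31 ± 0.470 and 3.73 ± 0.339 FPKM (-0.18, adjusted p = 0.17), and the other receptor gene Ednra and the ligand gene Edn1 did not pass (-0.21 and 0.31). Ece1, which cleaves the endothelin precursors, was called higher by 0.23 (adjusted p = 0.039), and the call was lost on leaving out trunk replicate 1 (adjusted p = 0.12) or 3 (0.087) or any 1 caudal library (0.051 to 0.1).

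Of 22 Wnt ligands and targets 5 were higher in caudal tissue and 4 lower. Lef1, a nuclear effector of Wnt signaling, went from 1.64 ± 0.180 to 4.08 ± 0.683 FPKM (SD, n = 4) and rose by 1.09. Of the secreted Wnt modulators, Sfrp2 rose by 0.66 and Sfrp1 fell by 0.63, and the receptor gene Lgr5 fell by 0.79. Rspo1, a Wnt enhancer, fell by 1.64. Of 13 retinoic acid genes 4 were higher and 1 lower, with Cyp26a1 first and Rdh10 and Crabp2 at 0.55 and 0.47. Of 19 FGF genes 4 were higher and 5 lower, with Fgfr2 higher (0.50) and Fgf9 and Fgfr4 lower (by 0.76 and 0.83). The shares called of these Wnt, retinoic acid and FGF lists were 40.9%, 38.5% and 47.4%, against 18% of all genes tested.

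Glycolysis genes were higher in caudal tissue in 11 of 20 cases and lower in none, with a median of 0.27. Ldha, which makes lactate, went from 118 ± 3.49 to 168 ± 18.4 FPKM (SD, n = 4) and rose by 0.50 ± 0.08 (limma adjusted p = 0.00088). The lactate exporter gene Slc16a3 rose by 0.65 and Eno1, Pgk1 and Slc2a1 by 0.34, 0.32 and 0.36. Gapdh, which has near-identical copies that can share its reads, did not pass (0.58, adjusted p = 0.6). Of 11 heart genes 7 were lower, among them Gata4, which the gonad list also holds, Actn2 (-0.94), which skeletal muscle also expresses, and Myh6 (-0.82). Nkx2-5, a defining heart factor, lay under the filter at 0, 0, 0.0308 and 0.0262 FPKM in the trunk libraries and at 0 in the caudal ones. Of 11 genes of foregut, lung and gut epithelium 6 were higher in caudal tissue and none lower, with Krt8, an epithelial keratin, at 0.88, Cdh1, an epithelial cadherin, at 0.64 and Shh as given above. Of 14 endothelial genes 7 were higher, by 0.36 or less, and 4 were called without caudal replicates 3 and 4. The 13 erythroid genes had a median of 0.11, and none was called. Among 11 macrophage genes 1 was lower and 10 did not pass, a share of 9.09% lower against 9.69% over all genes tested.

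The same regions of Ednrb-/- embryos showed 6234 called genes (36.2% of those tested), 3252 higher and 2982 lower in caudal tissue. Of the 3103 genes called in WT embryos, 1946 were called in the same direction there (62.7% of the WT calls and 31.2% of the Ednrb-/- calls), 101 in the opposite direction and 1056 not at all. The difference between the region differences was called for 1163 genes, 6.76% of those tested (limma interaction), and for 386 or 12.4% of the WT calls. The count fell to 648 without trunk replicate 1, to 670 without caudal replicate 1, to 436 without caudal replicates 3 and 4, and to 680 with a sex term. Hoxc11 differed by 5.78 in Ednrb-/- and 5.77 in WT embryos, and Hoxc8 by -2.46 and -2.50. The interaction was called for Hoxc12 (1.02), Hoxc13 (0.95) and Hoxd13 (-0.67), with positive values where the WT difference is more positive. For Myf5 and Myf6 the WT rise was set against log2 differences of -0.75 and -0.70 in Ednrb-/- embryos (interaction adjusted p = 0.00042 and 0.00084). Tbx4 and Pitx1 differed by 3.65 and 2.01 in Ednrb-/- embryos (interaction adjusted p = 0.019 and 0.026). The labels do not give the borders of the pieces, so a difference in dissection and one in genotype cannot be told apart.

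**Figure D5:**
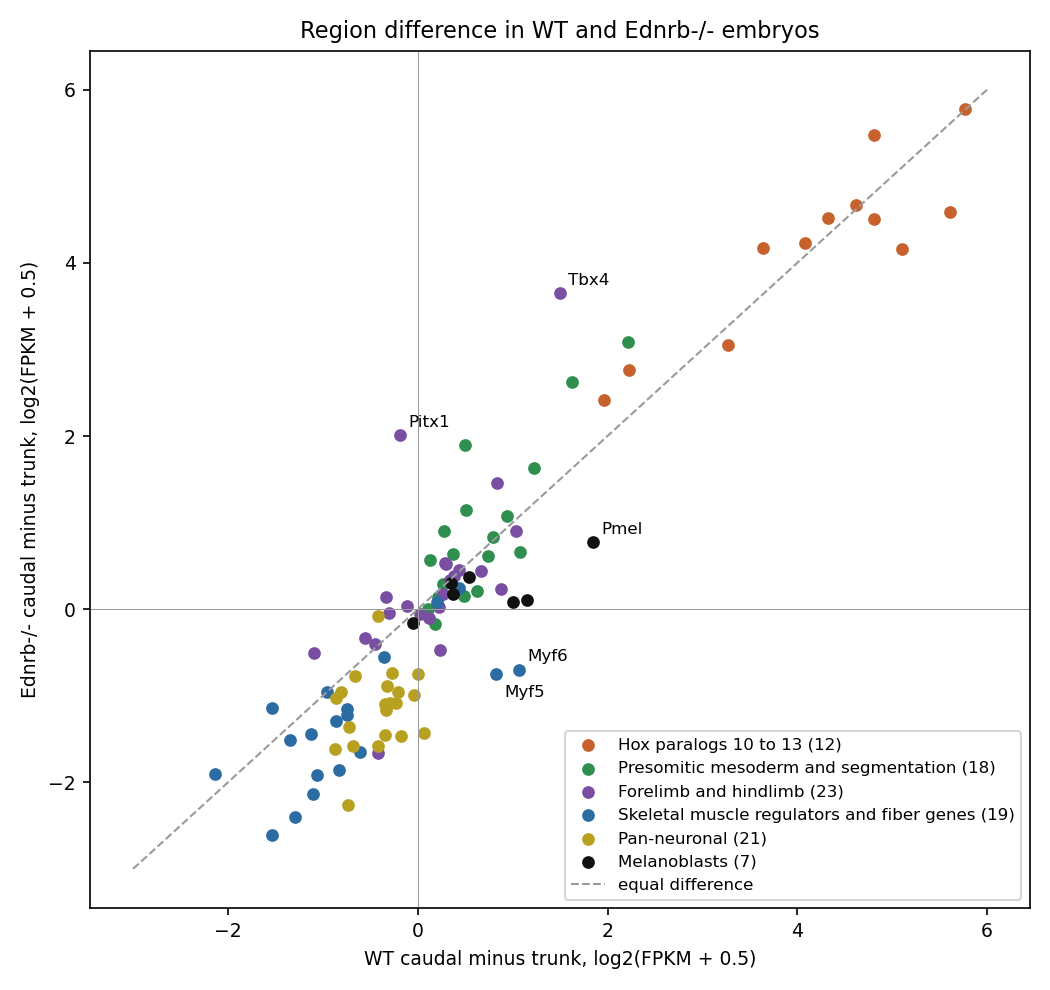
Region difference (caudal minus trunk, log2(FPKM + 0.5) scale) in WT (x axis) and Ednrb-/- (y axis) embryos for the members of 6 gene lists, 1 color a list, with a dashed line of equal difference. Of Hox paralogs 10 to 13, Hoxc12 (5.60 and 4.59) and Hoxc13 (5.11 and 4.16) lie below the line and Hoxd13 (4.81 and 5.48) above it. The others of these paralogs had no called interaction. Myf5 (0.82 and -0.75) and Myf6 (1.07 and -0.70) lie below the line, and Tbx4 (1.50 and 3.65) and Pitx1 (-0.18 and 2.01) above it.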

How the data were processed

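Total RNA (TRIzol) from trunk and caudal regions of WT and Ednrb-/- embryos at E11.5 was sequenced as Illumina libraries, per the labels' protocols. Reads were trimmed with fastp, aligned to mm39 with HISAT2 2.0.5 and counted with featureCounts 1.5.0-p3, per the submitters' processing notes. The authors deposited FPKM per gene for 16 libraries in 1 table. FPKM divides a gene's reads by its length and the library total, so 1 abundant transcript can lower all others, and low genes rest on few reads. The FPKM values were whole multiples of 1 read in 100% of cases (tolerance 0.01 reads), which gave the depth quoted.

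Genes with at least 0.5 FPKM in 4 or more of 16 libraries were kept. In their 4th highest library 890 excluded genes lay at 0.4 to 0.5 FPKM and 711 kept genes at 0.5 to 0.6. The test was limma 3.58.1 (R 4.3.3) with a trend on log2(FPKM + 0.5), with 4 group means over 16 libraries and Benjamini-Hochberg adjustment. Fold changes on this scale understate changes of low genes. The scripts were tested on simulated data. Listed genes under the filter and library shares used two-sided exact permutation tests. Lists are described by counts and medians over 36 lists, with no set test. Named genes are all Hox genes, the 15 largest changes each way among called protein-coding genes of at least 1 FPKM in a WT group, for each list the 6 members with the smallest adjusted p, and all members of the tailbud, presomitic, heterochronic, endothelin and melanoblast lists. Others are named as tissue markers, as members of a list, or as chosen after their values were seen. The members and lists were chosen with earlier results of these data known. Seed matches came from 3′ UTRs of GENCODE M21 (GRCm38). A few list members are not reported here by name. Figures used matplotlib 3.10.9.

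Replicates of 1 group differed by more than counting noise (chi-square per degree of freedom 8.30 to 16.1). P-values measure the spread between these libraries. The libraries of both groups mix sexes, from Xist and Ddx3y levels: 2 trunk and 1 caudal library showed high Xist with low Ddx3y, and in 1 caudal library both stood at 5 FPKM or more. Same-numbered trunk and caudal libraries did not deviate together (r of 0.07, 0.03, 0.11 and -0.04), so numbers were not used as pairs.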

Additional observations from a re-analysis of the deposited data

Results flagged for a closer look

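The region difference (caudal minus trunk, log2 scale) was compared between WT and Ednrb-/- embryos by a test of the difference between the 2 region differences (limma interaction). It was called for 44 of the 199 genes named here, 189 of which entered the fit, against 6.76% of all genes tested. Many of these genes were named for their WT region difference, so the 2 shares are not on equal terms. The interaction calls of single genes were not checked in the alternative fits. In the values that follow, given in parentheses as WT minus Ednrb-/-, a positive value means that the WT difference is more positive. Among Hox genes the interaction was called for Hoxc12 (1.02), Hoxc13 (0.95), Hoxd13 (-0.67), Hoxa4 (0.74), Hoxb4 (0.52), Hoxb6 (0.39), Hoxb9 (0.75), Hoxc4 (0.54), Hoxd1 (0.53), Hoxd3 (0.61) and Hoxd4 (0.47), and for the noncoding Hotair (0.52). Myf5 differed between the regions by 0.82 in WT and -0.75 in Ednrb-/- embryos, a difference of 1.57 (limma adjusted p = 0.00042). Myf6 differed between the regions by 1.07 in WT and -0.70 in Ednrb-/- embryos, a difference of 1.77 (limma adjusted p = 0.00084). The later muscle genes Myod1 (1.07), Actc1 (0.44), Acta1 (0.48) and Tnnc1 (0.86) and the heart and muscle gene Actn2 (0.97) were lower in caudal tissue of both genotypes, with smaller falls in WT embryos. Pax1 differed between the regions by 0.71 in WT and -0.15 in Ednrb-/- embryos, a difference of 0.86 (limma adjusted p = 0.00098). Other somite genes with a called interaction were Pax9 (0.71), Foxc1 (0.46) and Rspo3 (-0.63). The axial progenitor genes Cdx4 (-1.44) and Nkx1-2 (-1.03) had the larger caudal excess in Ednrb-/- embryos.

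Pitx1 differed between the regions by -0.18 in WT and 2.01 in Ednrb-/- embryos, a difference of -2.19 (limma adjusted p = 0.026). Tbx4 differed between the regions by 1.50 in WT and 3.65 in Ednrb-/- embryos, a difference of -2.15 (limma adjusted p = 0.019). WT caudal replicate 3 has little RNA of both and WT caudal replicate 4 the most, and the part of dissection in this difference was not tested. Pmel differed between the regions by 1.85 in WT and 0.77 in Ednrb-/- embryos, a difference of 1.07 (limma adjusted p = 0.0055). The melanoblast genes Dct (1.04) and Gpnmb (0.92) also differed more between regions in WT embryos. The neuron genes Chgb (0.74), Elavl4 (0.75), Tubb3 (0.86) and Slc5a7 (0.88) had the more negative difference in Ednrb-/- embryos, and Npy (-0.92) had the larger fall in WT embryos. Atoh1 differed between the regions by 1.04 in WT and -0.53 in Ednrb-/- embryos, a difference of 1.56 (limma adjusted p = 0.0049). Of matrix and growth genes the interaction was called for Kera (-1.47), Ogn (-0.92) and Dlk1 (-0.86), and otherwise for Foxp1 (0.52), Nfia (1.05), Zbtb20 (0.51), Sim2 (-1.17) and Shh (-0.63).

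In 21 of the 398 groups of 4 libraries checked, 1 library stood far from the other 3 (Dixon's test at the 95% level). Chance alone gives about 5% of groups, which is near the count seen. The values are FPKM of that library against the range of the others. Those near 0 rest on few reads, as for Hotair with 1 read over the 4 trunk libraries. WT trunk replicate 1 stood apart for Hotair (0.0129 against 0), Hoxa11 (0.887 against 0.0465 to 0.0927), Hoxd11 (0.834 against 0.0629 to 0.0821), Lef1 (1.91 against 1.52 to 1.58), Myh6 (0.584 against 0.802 to 0.843), Slc16a3 (4.5 against 3.88 to 3.97), Tbx4 (0.91 against 0.113 to 0.219) and Tbx5 (2.85 against 0.728 to 0.975). WT caudal replicate 1 stood apart for Gata4 (0.445 against 0 to 0.028), Rax (0.00928 against 0), Six3 (0.00996 against 0) and Upk3b (0.93 against 0.232 to 0.323). WT caudal replicate 2 stood apart for Hoxa9 (26.3 against 29.3 to 29.9), Hoxb5 (7.03 against 9.3 to 9.59), Hoxd12 (16.9 against 12.9 to 13.5) and Hoxd9 (20.9 against 28.3 to 28.9). WT trunk replicate 3 stood apart for Cdx4 (0 against 0.023 to 0.0271) and Mitf (0.885 against 0.645 to 0.68). WT caudal replicate 3 stood apart for Lfng (13.2 against 9.25 to 9.41). WT caudal replicate 4 stood apart for Alx4 (3.91 against 2.66 to 2.87). WT trunk replicate 2 stood apart for Nfib (11.3 against 9.24 to 9.48).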

How the results depend on the processing

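Of 157 called genes that are named here and entered the fit, 143 kept direction and call in each of the 21 alternatives that tested them (a filter at 1 FPKM leaves some out) and 14 lost the call in at least 1. Over the alternatives that keep all 16 libraries, 2529 to 3488 genes were called against 3103, and 2497 with only the 8 WT libraries. No named gene reversed. Leaving out 1 WT library at a time gave 2153 to 3122 called genes, 947 to 1465 higher and 1206 to 1657 lower in caudal tissue. The fewest were called without caudal replicate 2. Among list members 207 to 253 were called (243 with all libraries), and 4 to 8 general neuron genes were lower, or 11 with array weights. Without caudal replicates 3 and 4, an alternative chosen after seeing the data, 2048 genes were called, 906 of them higher, and 436 in the interaction. The interaction gave 648 to 1221 calls on leaving out 1 WT library (648 without trunk replicate 1 and 670 without caudal replicate 1) and 680 with a sex term, against 1163. The cause was not tested. With the replicate number as a block 3124 genes were called, holding 92.7% of the calls made without it. 2 of 4 numbers had their own partner as the best match. The median of all genes was 0.0014 with TPM scaling, 4e-04 with median-of-ratios scaling and 0.0082 with quantile normalization, against -0.0023. Log2 differences of genes near 0 in 1 region grew with a pseudocount of 0.1 or with voom on whole reads (Msgn1 4.07 and 6.20 against 2.21), so their size is set by the scale. The planned edgeR fit was not run, and voom on the recovered whole reads was run in its place. Depth limits genes under 0.5 FPKM, and shares of hemoglobin genes differed by 0.0161 to 0.0529 percentage points on leaving out 1 library.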

Other observations

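A few genes outside the lists stood among the largest changes. Ism1, a secreted protein, differed by 1.68 (limma adjusted p = 3e-07) and was chosen after its values were seen. Among the 15 largest falls were Sim2, a basic helix-loop-helix factor, at 1.86 ± 0.248 FPKM in trunk and 0.134 ± 0.0658 FPKM in caudal tissue (SD, n = 4), and Srd5a2, a steroid reductase, at 3.89 ± 0.407 and 0.784 ± 0.433 FPKM. They fell by 1.89 and 1.84 on the log2 scale.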
